A study of Mus musculus with 4 samples.

Results

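The genes described here are those of the type I interferon response, a list of 36 mouse genes that holds the receptor, its signalling factors and the antiviral genes they switch on. A gene was taken as measured where at least 1 probe set of the array was annotated with that gene symbol alone, and the probe set with the highest mean over the arrays then stood for the gene. This gave 34 of the 36 genes, out of 18193 genes measured in all; Isg15 and Ifi44 had no probe set of their own. The samples were prefrontal cortex of mice, hybridised as pools of RNA from 5 mice on Affymetrix expression arrays. Repeated social threat (labelled HighThreat) was represented by 2 pools and the control environment (labelled LowThreat) by 2 pools, and the pools of each group carry the numbers 1 and 2. The labels give neither strain, sex, age nor the duration of the threat, and they do not say what the pool numbers mark. Nothing says whether pools came from separate cages or days, so p-values measure only the spread between these pools, and a pool averages its mice.

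Type I interferons are cytokines that bind a receptor of the subunits IFNAR1 and IFNAR2. The receptor's kinases phosphorylate STAT2, which acts with IRF9 in a complex that enters the nucleus and binds interferon-stimulated response elements in the promoters of target genes. In brain, these genes keep a low resting level that depends on tonic interferon signalling, and microglia, astrocytes, endothelium and cells of the meninges can each raise it. In whole tissue, fewer cells of a type and less RNA per cell cannot be told apart.

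The response element can be read in the promoters of some of these genes. It was searched for by its core letters GAAANNGAAA on both strands, in 300 bases spanning the annotated start of each gene (RefSeq, GRCm38.p6). Of the 36 listed genes 29 had a promoter in the table, and 15 of these (51.7%) held the letters, against 3.99% of 27025 genes of the same table. Dhx58, Usp18, Oas2, Mx1, Mx2, Ifi27 and Parp14 had no entry. The 15 were Stat2, Ddx58, Ifih1, Isg15, Ifit1, Ifit3, Oas1a, Eif2ak2, Ifitm3, Bst2, Rsad2, Gbp2, Gbp3, Gbp7 and Trim30a. The gamma-activated site, searched as TTCNNNGAA, was found in 10 of the 29 promoters (34.5%), among them Irf1, Ifnar1 and Ifnar2, against 9.55% of all genes, and its letters overlapped those of the response element in 2 windows. Such a match of letters is a description and not a site shown to be used. The 4 promoters below were chosen after the expression values were seen, as genes that hold the element and whose pools were apart by pool number, so nothing about their differences follows from the match; they read 5′ to 3′ on the gene's strand, with every match to GAAANNGAAA or its reverse complement in capitals. They lie at chr19:34640639-34640938 (plus strand) for Ifit1, chr19:34583279-34583578 (plus strand) for Ifit3, chr3:142620413-142620712 (plus strand) for Gbp2 and chr7:141010695-141010994 (minus strand) for Ifitm3.
Ifit1: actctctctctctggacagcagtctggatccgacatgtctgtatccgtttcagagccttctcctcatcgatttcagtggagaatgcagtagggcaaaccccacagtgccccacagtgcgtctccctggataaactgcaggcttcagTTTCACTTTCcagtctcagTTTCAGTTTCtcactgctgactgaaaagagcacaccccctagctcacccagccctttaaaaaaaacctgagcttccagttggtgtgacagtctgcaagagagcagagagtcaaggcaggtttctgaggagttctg
Ifit3: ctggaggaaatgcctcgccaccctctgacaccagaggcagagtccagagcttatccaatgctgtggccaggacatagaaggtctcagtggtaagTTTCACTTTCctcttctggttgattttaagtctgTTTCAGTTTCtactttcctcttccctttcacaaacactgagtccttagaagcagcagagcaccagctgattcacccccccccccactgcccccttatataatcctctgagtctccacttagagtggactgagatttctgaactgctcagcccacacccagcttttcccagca
Gbp2: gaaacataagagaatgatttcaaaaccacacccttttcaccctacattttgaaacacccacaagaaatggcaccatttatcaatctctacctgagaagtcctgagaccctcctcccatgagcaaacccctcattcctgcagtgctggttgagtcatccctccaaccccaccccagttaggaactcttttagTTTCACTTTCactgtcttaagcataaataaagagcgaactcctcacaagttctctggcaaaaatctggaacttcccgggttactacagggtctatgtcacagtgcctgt
Ifitm3: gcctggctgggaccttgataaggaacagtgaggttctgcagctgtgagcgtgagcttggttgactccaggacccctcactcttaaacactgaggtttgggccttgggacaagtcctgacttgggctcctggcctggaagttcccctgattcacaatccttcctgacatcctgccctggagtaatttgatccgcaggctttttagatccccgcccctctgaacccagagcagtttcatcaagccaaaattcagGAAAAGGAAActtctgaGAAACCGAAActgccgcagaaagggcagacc
Ifit1, Ifit3 and Ifitm3 each hold 2 copies of the element and Gbp2 holds 1. In Ifit1, Ifit3 and Gbp2 the element lies before the start of the gene, while in Ifitm3 both copies lie just after it. The letters and the order of the pools did not run together in every gene. Oasl2, Lgals3bp, Irf9, Ifi35, Ifnar1, Ifnar2 and Oasl1, described below as apart by number, have no match in this window. Ifih1, Oas1a, Eif2ak2 and Rsad2 hold the letters and were not apart by number.

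Values are log2 expression values as deposited, normalised by RMA, so that a difference of 1 is a doubling. Array medians lay between 5.53 and 5.58. Bacterial control probe sets of Bacillus genes, which match no mouse RNA, reached 4.25 and served as a guide to background. Neuronal markers were far above it (Snap25, a synaptic vesicle fusion protein, measured 13.19 and 13.24 in the threat pools and 13.34 and 13.38 in the control pools). Correlations between arrays over all probe sets were 0.9942 to 0.9961.

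The interferon response genes were measured at low to middle levels. Ifitm3, a membrane protein that blocks the entry of enveloped viruses, and Ifi27, a small protein of mitochondrial and nuclear membranes, were the brightest, with Ifitm3 reaching 10.17 in control pool 2. All 4 pools of Dhx58 and Mx1 lay at or below the highest Bacillus value, and Oasl2, Eif2ak2 and Mx2 had 1 pool there, so that the size of a difference in Dhx58 or Mx1 cannot be read. Levels of different genes are not compared further, since each probe set has its own scale.

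**Figure D1:**
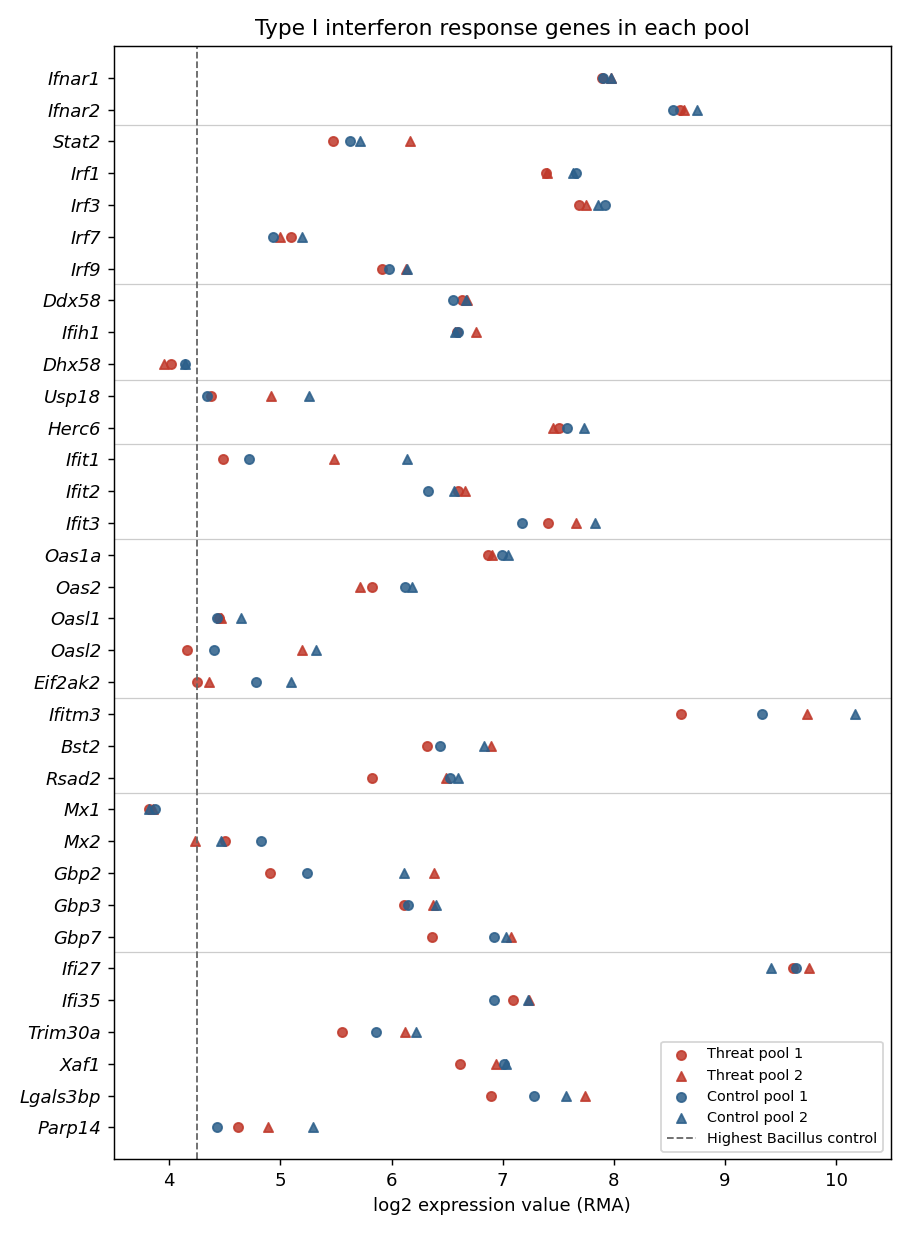
Log2 expression value (horizontal axis) of the 34 measured interferon response genes (rows, grouped by role) in the 2 threat pools (red) and the 2 control pools (blue), with circles for pools numbered 1 and triangles for pools numbered 2. Each point is 1 array of pooled RNA; the dashed line is the highest Bacillus control value, 4.25. In rows such as Ifit1, Oasl2 and Gbp2 the points sort by shape rather than by colour.

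The first comparison asked how the response genes differ between mice under repeated social threat and control mice. Most lay slightly lower under threat: the log2 difference of threat minus control was below 0 in 27 of 34 genes (79.4%), against 44.3% of all genes, with a median of -0.11 (quartiles -0.23 and -0.01), against 0.02 over all genes. In limma's test over all 45037 probe sets no member had an adjusted p under 0.05 (0.00% of all probe sets did), and the smallest adjusted p of a member was 0.413. At an unadjusted p under 0.05 there were 3 of the 34 (8.82%), Irf1, Oas2 and Eif2ak2, against 10.7% of all genes. In 9 genes (26.5%) both threat pools lay below both control pools, against 18.8% of all genes, and in 1 gene (2.94%), Ifit2, both lay above, against 26.2%. With a difference of at least 1.2-fold in addition, 3 genes (8.82%) were lower, against 6.80% of all genes, and none was higher, against 5.18% (2179 of 18193 genes met this rule in either direction). The counts of lower genes by these rules are thus near the background, while fewer genes were higher and a larger share lay below 0 than over all genes. The sign of the median rested on single pools: it was 0.04 without threat pool 1 and 0.04 without control pool 2, while it was -0.21 without control pool 1.

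The chosen probe sets of the receptor subunits differed by at most 0.03 between the group means. Ifnar1 measured 7.89 and 7.97 in the threat pools and 7.90 and 7.97 in the control pools. Ifnar2 measured 8.59 and 8.63 in the threat pools and 8.53 and 8.75 in the control pools. In both genes the ranges of the groups overlap, and the log2 differences were -0.00 ± 0.09 and -0.03 ± 0.11 (limma, SE). A dimmer probe set of Ifnar2, of the _x_at class whose probes may also match related genes, gave another order, with 5.52 and 5.61 in the threat pools and 5.77 and 5.84 in the control pools (-0.24).

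Among the factors that carry the signal, the pools of Irf1 and Irf3 were apart and those of Stat2, Irf7 and Irf9 were not. Irf1, itself an early interferon target that acts as a transcription factor, measured 7.39 and 7.40 in the threat pools and 7.66 and 7.63 in the control pools, a log2 difference of -0.25 ± 0.09 (SE; limma, adjusted p = 0.452). Both threat pools were lower, and the pools within a group differed by at most 0.02, so that the difference stayed between -0.24 and -0.26 when any 1 pool was left out. Irf3, the factor that virus sensors activate to start interferon production, measured 7.69 and 7.75 in the threat pools and 7.92 and 7.86 in the control pools, a log2 difference of -0.17 ± 0.09 (limma, adjusted p = 0.531). This probe set is of the _x_at class. Its 3 other probe sets gave -0.11, -0.22 and -0.08, each below 0. Irf7, which amplifies the response, measured 5.10 and 5.00 in the threat pools and 4.93 and 5.19 in the control pools. Irf9, the DNA-binding partner of STAT2, measured 5.91 and 6.13 in the threat pools and 5.98 and 6.14 in the control pools. Stat2 measured 5.47 and 6.17 in the threat pools and 5.63 and 5.72 in the control pools, so that threat pool 2 alone stood high. The second probe set of Stat2 measured 5.76 and 5.68 in the threat pools and 5.54 and 5.52 in the control pools, a different order.

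In the chosen probe sets the cytoplasmic sensors of viral RNA did not differ by more than 0.2 on the log2 scale. Ddx58, which encodes RIG-I, measured 6.63 and 6.68 in the threat pools and 6.55 and 6.67 in the control pools. A dimmer probe set of Ddx58 measured 4.75 and 4.74 in the threat pools and 4.98 and 4.93 in the control pools (-0.21), and the mean over its probe sets was -0.11 in place of 0.05. Ifih1, which encodes MDA5, measured 6.59 and 6.76 in the threat pools and 6.60 and 6.57 in the control pools. Dhx58, the regulatory relative of both, measured 4.02 and 3.95 in the threat pools and 4.14 in both control pools, all within background.

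Of the antiviral effectors, 3 had separate pools and a difference of at least 1.2-fold, and each was lower under threat. Eif2ak2, the kinase PKR that halts translation on double-stranded RNA, measured 4.25 and 4.36 in the threat pools and 4.78 and 5.10 in the control pools, a log2 difference of -0.64 ± 0.13 (SE; limma, adjusted p = 0.413) or 1.56-fold. The threat pools lie at the edge of background, so the size of this difference is uncertain. The 2 other probe sets of Eif2ak2 gave 0.13, with both threat pools higher, and 0.06, within background. Oas2, an enzyme whose oligoadenylate product activates an RNase against viral RNA, measured 5.82 and 5.72 in the threat pools and 6.12 and 6.18 in the control pools, a log2 difference of -0.38 ± 0.09 (limma, adjusted p = 0.427) or 1.30-fold. It held between -0.33 and -0.43 when any 1 pool was left out. Rsad2, which encodes viperin, an enzyme that makes a chain-terminating nucleotide, measured 5.82 and 6.49 in the threat pools and 6.53 and 6.60 in the control pools, a log2 difference of -0.40 ± 0.22 (limma, adjusted p = 0.534). Threat pool 1 alone stood low, and without it the difference was -0.07. A second probe set of Rsad2 above background gave -0.02.

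The other members with separate pools differed by less than 1.2-fold. Oas1a, of the same enzyme family as Oas2, was at -0.14 and Xaf1, a promoter of apoptosis, at -0.24. Xaf1 rested on threat pool 1, with -0.08 without it and -0.40 without threat pool 2. Herc6, the ligase that attaches ISG15 to proteins in mouse, was at -0.18 (-0.10 without control pool 2), but of its 3 other probe sets 2 lay above 0 (0.07 and 0.20). Dhx58, within background, was at -0.15. Ifit2, which binds viral RNA, was the single gene with both threat pools higher: it measured 6.60 and 6.66 in the threat pools and 6.33 and 6.56 in the control pools, a log2 difference of 0.18 ± 0.12 (limma, adjusted p = 0.576). It was 0.06 without control pool 1 and 0.30 without control pool 2.

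**Figure D2:**
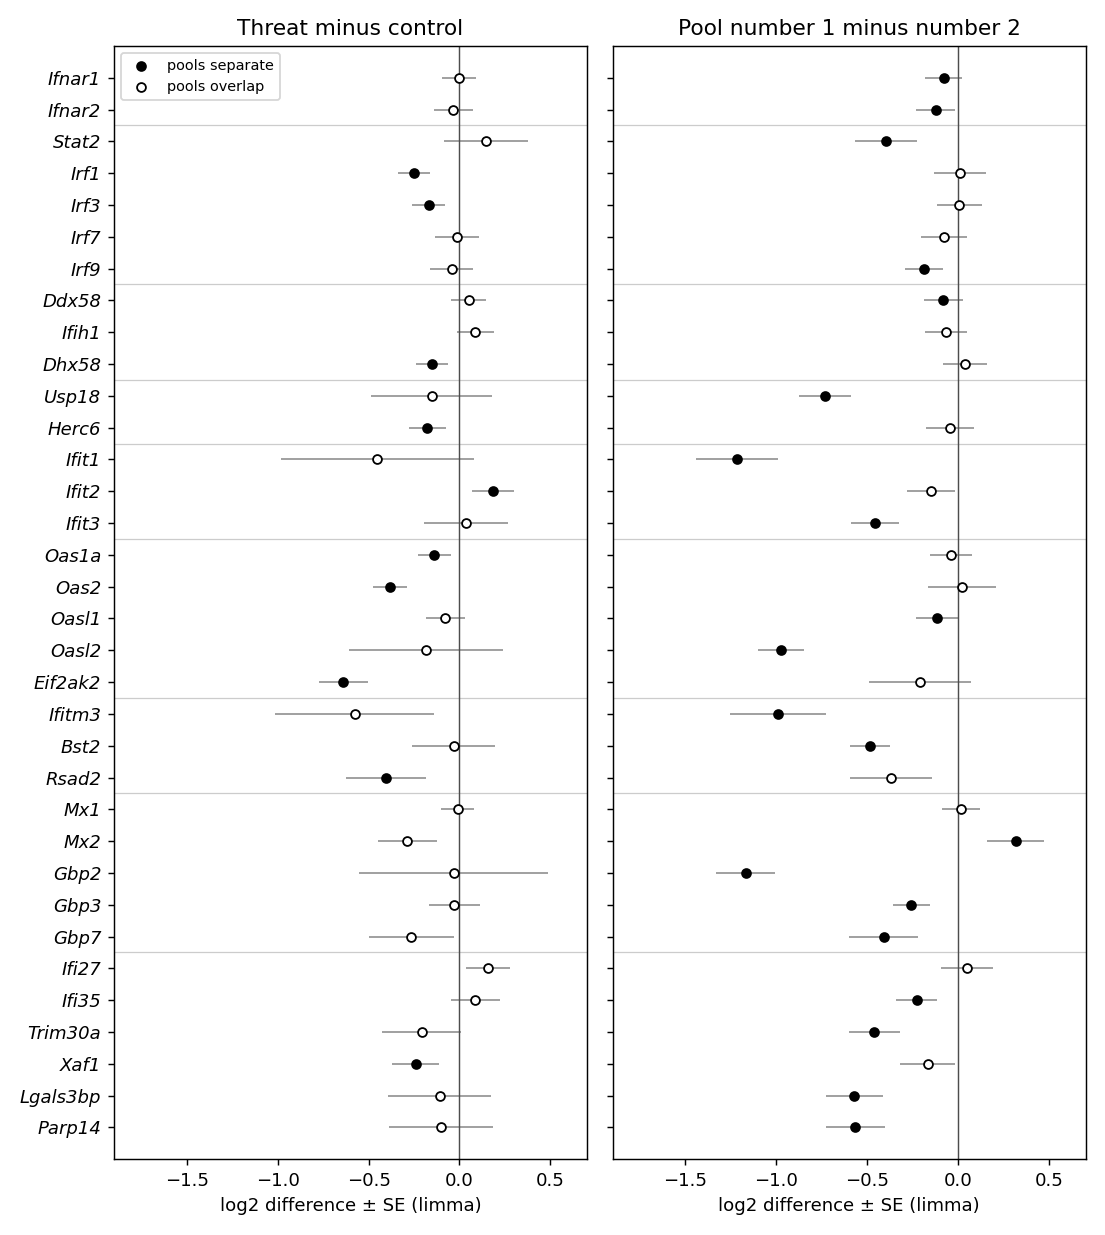
Log2 difference with its SE from limma (horizontal axes) for each of the 34 genes (rows, grouped by role), threat minus control on the left and pool number 1 minus number 2 on the right. Filled points mark genes in which both pools of one side lie above both pools of the other; 10 points are filled on the left and 20 on the right, and the right panel reaches -1.21 (Ifit1).

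The second comparison set the pools numbered 1 against those numbered 2, each number holding 1 threat and 1 control pool. Here the response genes were lower in the pools numbered 1 by larger amounts. In 19 of 34 genes (55.9%) both pools numbered 1 lay below both pools numbered 2, against 13.0% of all genes, and in 1 gene (2.94%), Mx2, both lay above, against 21.2%. With at least 1.2-fold, 12 genes (35.3%) were lower in number 1, against 4.49% of all genes, and 1 (2.94%) was higher, against 4.20%; 8.70% of all genes met this rule in either direction. The difference was below 0 in 27 genes (79.4%), against 41.7% of all genes. Apart from ties, a gene whose 4 pools are apart by number cannot also be apart between threat and control, so the 2 sets of genes are distinct by construction. The median log2 difference of number 1 minus number 2 was -0.18 (quartiles -0.46 and -0.05), against 0.03 over all genes, and it lay between -0.14 and -0.21 when any 1 pool was left out. With limma no member had an adjusted p under 0.05 over all probe sets (0.00% of all probe sets did); 11 (32.4%) had an unadjusted p under 0.05, against 5.90% of all genes, and the smallest adjusted p was 0.162.

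The genes of the IFIT family of antiviral proteins differed among themselves. Ifit1 measured 4.48 and 4.72 in threat pool 1 and control pool 1, and 5.48 and 6.14 in threat pool 2 and control pool 2. The difference of number 1 minus number 2 was -1.21 ± 0.23 (SE; limma, adjusted p = 0.401) or 2.32-fold, against a threat minus control difference of -0.45 ± 0.53 (limma, adjusted p = 0.768). Ifit3 measured 7.41 and 7.17 in threat pool 1 and control pool 1, and 7.66 and 7.83 in threat pool 2 and control pool 2, a difference of -0.46 ± 0.13. Both genes were apart by number and overlapped between threat and control. Ifit2, whose values are given above, overlapped by number, with a difference of -0.15 ± 0.13.

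Gbp2, a guanylate-binding GTPase that attacks the vacuoles of intracellular pathogens, measured 4.91 and 5.24 in threat pool 1 and control pool 1, and 6.38 and 6.11 in threat pool 2 and control pool 2. The difference by number was -1.17 ± 0.16 (limma, adjusted p = 0.177), and its second probe set gave -1.08, while threat minus control was -0.03 ± 0.52. The first probe set is of the _x_at class. Gbp3 measured 6.11 and 6.15 in threat pool 1 and control pool 1, and 6.37 and 6.40 in threat pool 2 and control pool 2. A dimmer probe set of Gbp7 was separate and lower under threat (-0.197) and overlapped by number (-0.187). The chosen probe set of Gbp7 measured 6.36 and 6.92 in threat pool 1 and control pool 1. It measured 7.07 and 7.03 in threat pool 2 and control pool 2. Without threat pool 1 its difference by number was -0.13 in place of -0.41. The dynamin-like GTPases did not share this order: Mx2 measured 4.50 and 4.83 in threat pool 1 and control pool 1, and 4.23 and 4.47 in threat pool 2 and control pool 2, near background (0.32 by number, and 0.15 without control pool 1), and Mx1 lay within background at 3.82 to 3.87.

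Ifitm3 measured 8.60 and 9.33 in threat pool 1 and control pool 1, and 9.74 and 10.17 in threat pool 2 and control pool 2. Its difference by number was -0.99 ± 0.26 (limma, adjusted p = 0.704), and threat minus control was -0.58 ± 0.43 (limma, adjusted p = 0.635). Within each number the threat pool was the lower one, by 0.73 in the pair numbered 1 and by 0.43 in the pair numbered 2. Without threat pool 1, the threat minus control difference was -0.01 and the difference by number -0.63. Bst2, tetherin, which holds budding virions on the cell surface, measured 6.32 and 6.44 in threat pool 1 and control pool 1, and 6.89 and 6.83 in threat pool 2 and control pool 2. It was apart by number (-0.48 ± 0.11) and overlapped between threat and control (-0.03 ± 0.23).

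Oasl2, a ubiquitin-like relative of the OAS enzymes, measured 4.16 and 4.40 in threat pool 1 and control pool 1, and 5.19 and 5.32 in threat pool 2 and control pool 2, a difference of -0.98 ± 0.13 with the smallest adjusted p among the members (limma, adjusted p = 0.162). Threat pool 1 is within background, so the size is uncertain. Usp18, the protease that removes ISG15 and damps the receptor, measured 4.38 and 4.34 in threat pool 1 and control pool 1, and 4.92 and 5.26 in threat pool 2 and control pool 2, a difference of -0.73 ± 0.14. Parp14, an ADP-ribosyltransferase, measured 4.62 and 4.43 in threat pool 1 and control pool 1, and 4.89 and 5.29 in threat pool 2 and control pool 2. Oasl2, Usp18 and Parp14 were thus each apart by number, with a wider gap in the control pair for Usp18 and Parp14. The difference by number of Parp14 was -0.57 (-0.37 without control pool 2). Its other probe set, within background, gave 0.19 with both pools numbered 1 higher, and the mean over both probe sets was -0.19.

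Lgals3bp, a secreted glycoprotein, measured 6.89 and 7.28 in threat pool 1 and control pool 1, and 7.74 and 7.57 in threat pool 2 and control pool 2, a difference of -0.57 ± 0.16. Trim30a, a ring-finger protein that restrains inflammatory signalling, measured 5.55 and 5.86 in threat pool 1 and control pool 1, and 6.12 and 6.22 in threat pool 2 and control pool 2, a difference of -0.46 ± 0.14. Without threat pool 1 these differences were -0.38 for Lgals3bp and -0.31 for Trim30a. A dimmer probe set of Trim30a measured 4.34 and 4.65 in the threat pools and 4.73 and 4.94 in the control pools. It was separate and lower under threat (-0.35) and overlapped by number (-0.26). Stat2 was also apart by number (-0.40 ± 0.17), but pool 1 minus pool 2 was -0.70 in the threat pools and -0.09 in the control pools, and its second probe set gave 0.05; without threat pool 2 the difference by number was -0.17. Irf9, Ifi35, Ifnar1, Ifnar2, Ddx58, Oasl1 and Gbp3 were apart by number with differences under 1.2-fold. Ifnar1 (-0.080 ± 0.102) and Ddx58 (-0.081 ± 0.105) differed by less than their SE. The means over their probe sets lay on the other side of 0, at 0.03 and 0.01. Of the dimmer probe sets of Ifi35, one gave 0.03 and another -0.24 by number. The 10 genes whose pools were apart between threat and control had differences by number between -0.37 (Rsad2) and 0.04 (Dhx58), with Irf1 at 0.01 and Oas2 at 0.02.

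The difference by number can be read separately in the threat pools and in the control pools, which share no array. The log2 difference of pool 1 minus pool 2 was below 0 in 29 of 34 genes between the threat pools, against 42.7% of all genes, and in 27 of 34 between the control pools, against 44.0%. It was below 0 in both groups in 24 genes (70.6%), against 23.5% of all genes. These are the same 4 arrays as above, and by construction the 24 include the 19 genes apart with number 1 lower. That count thus restates part of the comparison by number. The difference of pool 1 minus pool 2 was at -0.5 or lower in both groups in 5 genes (14.7%), against 1.12% of all genes. They were Ifit1, Usp18, Oasl2, Ifitm3 and Gbp2. The median gap of the members was -0.16 between the threat pools and -0.18 between the control pools. Both exceed in size the medians of threat minus control within each pool number, -0.12 and -0.11. Those pairs, like these gaps, are 1 array against 1 array.

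**Figure D3:**
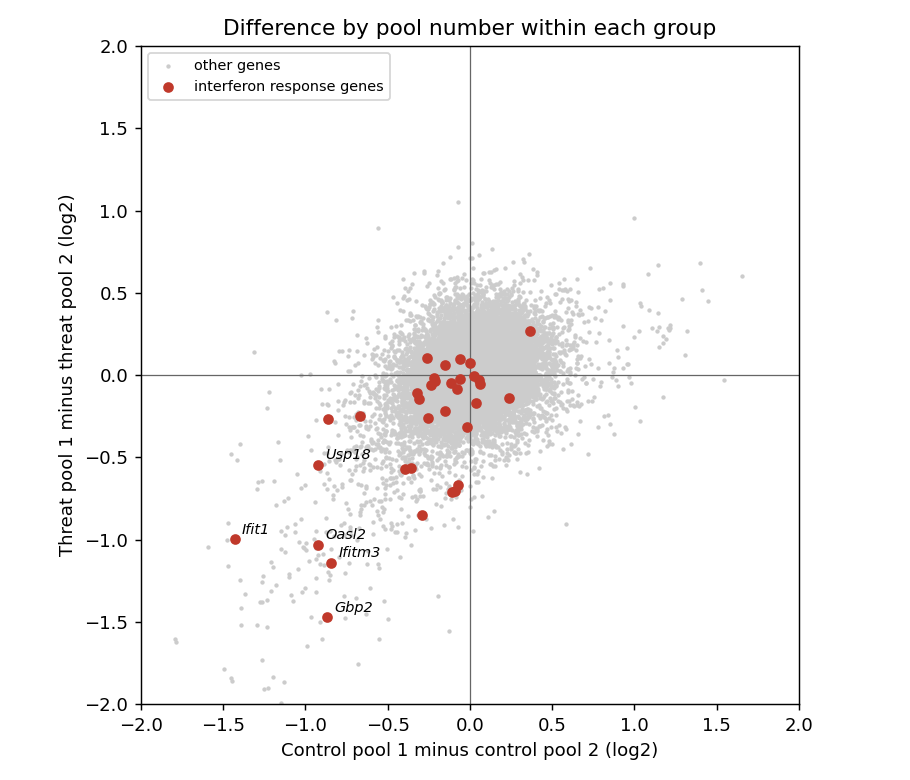
Control pool 1 minus control pool 2 (horizontal axis, log2) against threat pool 1 minus threat pool 2 (vertical axis, log2) for the 34 interferon response genes (red) and all other measured genes (grey); 10 genes lie outside the axes. The 5 named genes lie at -0.5 or lower in both groups.

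Within each pool number, threat can be set against control. The log2 difference of threat minus control was below 0 in 25 of 34 genes in the pair numbered 1 (73.5%), against 45.2% of all genes, with a median of -0.12. In the pair numbered 2 it was below 0 in 22 of 34 (64.7%), against 44.5%, with a median of -0.11. Both pairs were below 0 in 16 genes (47.1%), against 27.6% of all genes; Oas2 (-0.30 and -0.46), Eif2ak2 (-0.53 and -0.75) and Irf1 (-0.27 and -0.24) had a like size in both, while Rsad2 (-0.70 and -0.11) did not. Each pair is 1 array against 1 array and has no test. By pool, threat pool 1 was the lowest of the 4 in 18 genes (52.9%), against 19.7% of all genes, and control pool 2 the highest in 18 genes (52.9%), against 19.2%.

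A wider list of 74 interferon pathway genes outside the 36, of which 67 were measured, was apart by number more often than all genes were, as the members were. In neither comparison did one reach an adjusted p under 0.05 with limma. At an unadjusted p under 0.05 there were 4 (5.97%) between threat and control, against 10.7% of all genes, and 18 (26.9%) by number, against 5.90%. Threat minus control was below 0 in 49 of 67 genes (73.1%), against 44.3% of all genes, with a median of -0.06. The threat pools were both below the control pools in 13 genes (19.4%), against 18.8% of all genes, and both above in 11 (16.4%), against 26.2%, where the members had 9 and 1. By number, 27 of 67 (40.3%) were separate with number 1 lower, against 13.0% of all genes, and 8 (11.9%) with number 1 higher, against 21.2%, with a median of -0.11. Cmpk2, a mitochondrial nucleotide kinase whose gene neighbours Rsad2, measured 7.86 and 7.91 in the threat pools and 8.59 and 8.56 in the control pools, a difference of -0.70 (limma, adjusted p = 0.344). Its difference by number was -0.01. The mean over the 2 probe sets of Cmpk2 gave -0.36 for threat minus control. Ifitm1 (-0.54), Ifi30 (-0.46), a lysosomal thiol reductase, and Ifitm2 (-0.40) followed in size. The pools of Ifi30 were separate, while those of Ifitm1 and Ifitm2 overlapped, with -0.06 and -0.07 without threat pool 1. By number, Ifi27l2a (-1.03), Gbp6 (-0.89), Ifitm1 (-0.87) and Ifitm2 (-0.72), relatives of the members Ifi27, Gbp2 and Ifitm3, differed most. Ifi27l2a measured 6.17 and 6.38 in threat pool 1 and control pool 1, and 7.23 and 7.37 in threat pool 2 and control pool 2.

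Markers of several cell types moved with the pools as well. All 6 measured markers of meningeal fibroblasts were lower in the pools numbered 1, each with separate pools, against 13.0% of all genes. Their median difference was -1.06 by number. Set against each marker's mean over the 4 pools, their median was -0.70 and -0.30 in threat pool 1 and control pool 1, and 0.40 and 0.76 in threat pool 2 and control pool 2. Col1a2, a collagen chain, measured 8.85 and 9.06 in threat pool 1 and control pool 1, and 10.19 and 10.15 in threat pool 2 and control pool 2. Col1a2, Col3a1 and Dcn were at -1.211, -1.58 and -1.007 by number, and at -0.802, -1.073 and -0.475 as means over their probe sets. Of 6 measured endothelial markers (of 7 listed), each was below 0 in both comparisons, against 44.3% and 41.7% of all genes. Their medians were -0.33 for threat minus control and -0.38 by number. Mural cell markers had medians of -0.86 and -0.72, with 5 and 4 of 6 below 0. The pools of 5 were separate and lower in threat, against 18.8% of all genes. By number none was separate and lower and 1 was separate and higher, against 13.0% and 21.2% of all genes. Acta2 and Pdgfrb were at -1.83 and -0.70 for threat minus control, and at -0.735 and -0.351 as means over their probe sets. The 7 measured microglial markers (of 8) had a median of -0.14 for threat minus control and 0.02 by number. Of these, 3 were separate and lower in threat, against 18.8% of all genes, and none was separate by number. The 5 measured oligodendrocyte markers (of 6) were all separate and lower in threat, against 18.8% of all genes. Their medians were -0.99 for threat minus control and 0.06 by number. Astrocyte, neuron, choroid plexus and blood cell lists had medians by number of -0.13, -0.03, 0.01 and 0.45, and for threat minus control of -0.09, -0.09, -0.32 and -0.75. None of these markers lay at or below the highest Bacillus value in any pool. The part of these cell types in the interferon gene differences was not tested.

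**Figure D4:**
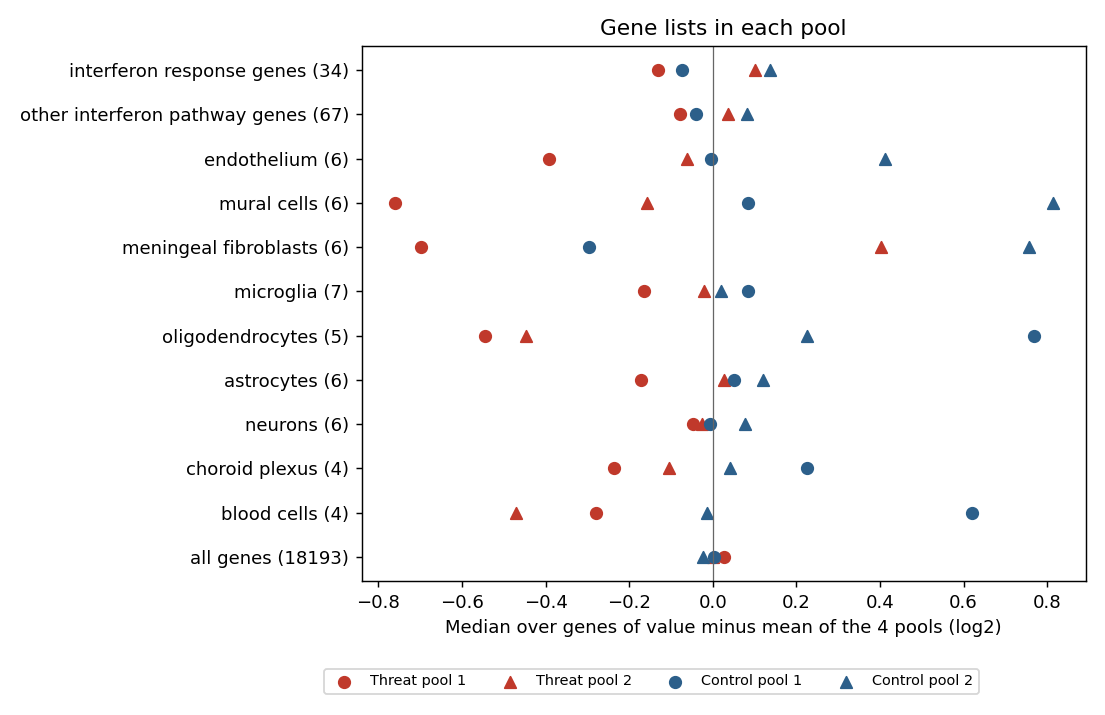
Median over the genes of each list (rows, number of genes in brackets) of the value in a pool minus the gene's mean over the 4 pools (horizontal axis, log2), for threat pools (red) and control pools (blue), circles for number 1 and triangles for number 2. The interferon response genes, the other interferon pathway genes and the meningeal fibroblast markers have both number 1 pools below 0 and both number 2 pools above it. The mural cell, microglia, oligodendrocyte and choroid plexus markers have both threat pools below 0 and both control pools above it.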

How the data were processed

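Total RNA of prefrontal cortex, pooled from 5 mice per array, was labelled with biotin by the standard Affymetrix procedure, per the labels' protocols. The deposited values are log2 expression values per probe set; the authors used RMA, per the submitters' processing notes, with version, settings and chip definition not given in the sources used here. RMA brings arrays to a common distribution, so a shift of most transcripts would not be seen. Of 45101 probe sets, array controls were left out, leaving 45037, of which 34945 had 1 symbol in the platform annotation. No scanner files were used, so no detection call or depth is available; the number of arrays limits precision.

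Both comparisons were fitted with limma 3.58.1 (R 4.3.3; lmFit, eBayes, two-sided, Benjamini-Hochberg over all 45037 probe sets; 2 residual degrees of freedom), tested on simulated data. An exact permutation test of 2 against 2 pools cannot go below a two-sided p of 0.333 and was not run. Pools are separate when both of one side exceed both of the other. Values per pool are given for members with separate pools and at least 1.2-fold, or with a named role; of other lists, up to 4 genes of largest difference are named. Alternatives were pools left out, the pool number as a block, cyclic loess, median centring, an intensity trend, other probe set choices, a filter on low values and 1.5-fold. The members, lists and tests were chosen with earlier results of these data known.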

Additional observations from a re-analysis of the deposited data

How the results depend on the processing

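With 2 pools a side, the fits rest mainly on limma's pooled variance, and no interferon gene passed an adjusted p of 0.05 in either comparison under any alternative run; the smallest adjusted p among them was 0.0567, by number with arrays centred on their medians. With the pool number as a replicate block the count past the threshold stayed at 0 in both comparisons. Pool numbers are not said to pair the pools; over all probe sets, the difference of pool 1 minus pool 2 in the control pools correlated with that in the threat pools at 0.33. A lone pool left in a group is assumed to vary like the others. Separation is easier to meet with 3 pools, so its counts are not given for pools left out. When 1 pool was left out, the threat minus control counts ran between 10 and 21 for separate and lower, 1 and 11 for separate and higher, and 6 and 12 for separate with at least 1.2-fold, and the median between -0.208 (without threat pool 2) and 0.044 (without threat pool 1; 0.037 without control pool 2). By number the same counts ran between 21 and 26, 1 and 5, and 13 and 16, and the median between -0.208 and -0.138. For the other pathway genes, the counts ran between 19 and 39 lower and 14 and 18 higher, and the median between -0.124 and 0.015 (without control pool 2). The count of separate and higher genes under threat was 4 with arrays centred and 2 with the mean over a gene's probe sets, and by number also 2 with that mean. The count with at least 1.2-fold under threat was 5 with cyclic loess, 1 with the mean over probe sets and 1 at 1.5-fold; by number it was 5 at 1.5-fold. Pools left out aside, other settings kept these counts within 1.5 times and each median on its side of 0. No share of all genes is given for the counts under these alternatives, so they show only how far the counts moved.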
